A study of Mus musculus with 8 samples.

Results

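The genes examined here encode the β-catenin destruction complex and the tankyrases. They are the scaffolds *Axin1*, *Axin2*, *Apc* and *Apc2*, the kinases *Gsk3a*, *Gsk3b* and *Csnk1a1*, the substrate *Ctnnb1*, and the poly(ADP-ribose) polymerases *Tnks* and *Tnks2*. They were taken by gene symbol, and all 10 of the 10 were present among the 15039 genes measured. RNA sequencing covered the prefrontal cortex (PFC) of 8 wild-type male mice of the strain C57BL/6NCrljOri. In 4 of them an AAV2/1 vector had delivered mouse Rnf146 with eGFP, and in the other 4 the same kind of vector had delivered eGFP alone. The injection was bilateral at an age of 6 weeks, and the tissue was dissected 4 weeks later. According to the paper, Rnf146 overexpression and social deficits had been established in the mice used for sequencing. Both vectors used the hsyn promoter, which directs the transgene to neurons, while the dissected tissue also holds glial and vascular cells. The labels give 1 library for each group and replicate number, and they do not say what the mice with the same number share.

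Rnf146 is a RING-type ubiquitin ligase that recognizes proteins after a tankyrase has attached poly(ADP-ribose) to them. Axin is its best known substrate. Axin holds APC, glycogen synthase kinase 3 and casein kinase 1α together with β-catenin, so that β-catenin is phosphorylated and degraded, and Wnt signals interrupt this process. These steps act on proteins, and RNA sequencing measures only the transcripts. *Axin2* has a second role as a transcriptional target of β-catenin, so its RNA is widely used as a readout of the pathway.

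For this reason the sequence upstream of *Axin2* is shown. The 1000 bases before the start of its canonical GENCODE transcript (GRCm39, plus strand) were searched on both strands for the TCF/LEF core CTTTG with A or T at each of the next 2 positions. They held 2 matches, shown in capitals with 10 bases on each side, at chr11:108811243-108811269 and chr11:108811606-108811632. Both stretches lie in an exon of another *Axin2* transcript.
Axin2 upstream, distal: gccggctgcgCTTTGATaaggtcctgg
Axin2 upstream, proximal: cggctcgcgcCTTTGAAgtgcacagtt
At least 1 match was found in 6 of the 10 genes and in 54.7% of the 14589 windows of the same length that could be read for the measured genes, so such a match is common. *Csnk1a1* and *Tnks2* had 3 matches each, *Gsk3b* had 2, and *Apc* and *Tnks* had 1. *Axin1*, *Apc2*, *Gsk3a* and *Ctnnb1* had 0, which says only that these letters are not in that window.

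The deposited values are on a log2 scale and run from 7.86 to 18.79. Libraries with the same replicate number form a pair, and within each gene the sum of a pair was constant over the 4 pairs to within 1.4e-13. The authors had therefore centred the values within pairs. A gene carries its mean and 4 differences, Rnf146 minus eGFP, and the spread within a group is that of these differences alone. The depth of the libraries is unknown, since no counts are part of the values. Weakly expressed genes sit close to a floor, where differences are smaller than they would be for log2 counts. Differences were tested with limma, in which the pair was a block, and a gene counted as called when its p, adjusted over all genes, did not exceed 0.1. The p-values rest on the spread between these 4 pairs, which limma draws toward that of genes at the same level.

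The transgene was plainly visible in the RNA, in mice that the paper had already found to overexpress Rnf146. *Rnf146* (chromosome 10 of GRCm39, 29216737 to 29238438, minus strand) had values of 10.35, 10.50, 10.43 and 10.47 in the eGFP libraries and of 13.17, 13.01, 13.09 and 13.05 in the Rnf146 libraries. Every Rnf146 library lay above every eGFP library. The difference was 2.64 ± 0.13 on the log2 scale (SD, n = 4 pairs), with a 95% interval of 2.51 to 2.77 and an adjusted p of 3.18e-07 from limma. It was largest in pair 1, at 2.82, and smallest in pair 2, at 2.51.

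No gene of the destruction complex and neither tankyrase passed the test in the same libraries. The mean differences of the 10 genes ran from -0.07 for *Apc2* to 0.09 for *Gsk3b*, with 5 above and 5 below 0 and a median of 0.01. The limma test called 0 of the 10, against 1.25% of all genes (188 of 15039, with 0.818% called higher and 0.432% called lower). An unadjusted p below 0.05 was reached by 0 of the 10, against 12.4% of all genes, and the adjusted p-values from limma lay between 0.463 and 0.986. The direction was the same in all 4 pairs for 4 of the 10 genes, against 20.6% of all genes. These were 3 genes that were higher, against 10.4%, and 1 that was lower, against 10.2%. A limma fit that ignores the pairs, and so treats the centred values as 8 independent libraries, called *Gsk3b* and *Tnks*, against 21.5% of all genes. In values centred within pairs, the groups do not overlap exactly when all pairs share a direction.

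The limma intervals bound the size of a change only within that fit. The 95% intervals of the 10 genes reached at most 0.20 in either direction on the log2 scale, that is from 11.7% lower to 14.7% higher when the scale is read as a plain log2. When markers of striatum and septum entered the fit as a covariate, the intervals were wider and reached 0.56 for *Ctnnb1* and -0.40 for *Apc2*. The smallest difference of any called gene was 0.205. The SD over the pairs ran from 0.02 for *Axin1* to 0.17 for *Ctnnb1*, with a median of 0.08, beside 0.10 for all genes. Only *Apc* and *Ctnnb1* had an SD above that of the median gene.

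**Figure D1:**
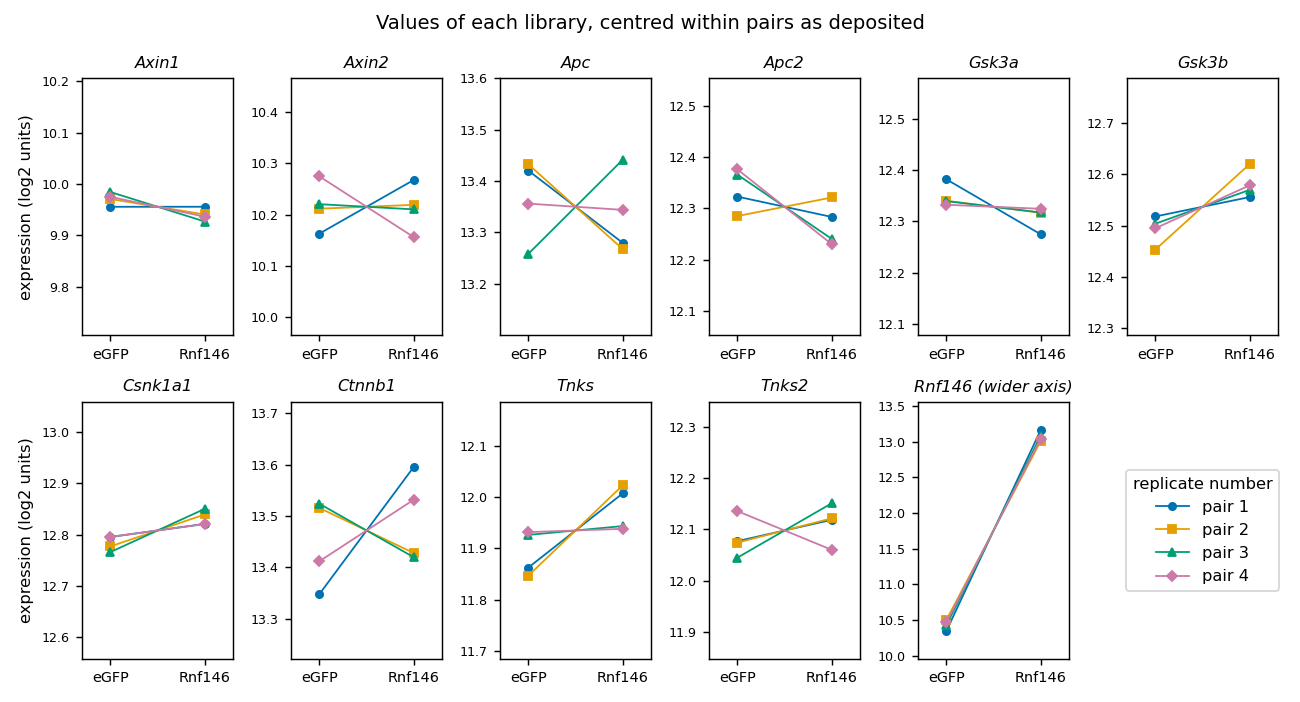
Expression of each gene in the 4 eGFP and the 4 Rnf146 libraries (log2 units, as deposited), with a line for each replicate number. The panels of the 10 genes span the same height, and that of Rnf146 has a wider axis. Rnf146 rises steeply along all 4 lines, the lines of Gsk3b, Csnk1a1 and Tnks all slope up slightly, those of Gsk3a slope down, those of Axin1 are flat or slope slightly down, and those of Axin2, Apc, Apc2, Ctnnb1 and Tnks2 run in both directions.

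Among the scaffolds, *Axin1* showed the tightest values of all. This gene (chromosome 17, 26350235 to 26414789, plus strand) encodes the Axin that limits assembly of the complex in most cells. Its values were 9.96, 9.97, 9.98 and 9.98 in the eGFP libraries and 9.96, 9.94, 9.93 and 9.94 in the Rnf146 libraries. The pair differences of 0.0001, -0.03, -0.06 and -0.04 thus left pair 1 level and the others slightly lower. Their mean was -0.03 ± 0.02 (SD, n = 4 pairs), with a 95% interval of -0.13 to 0.07 and an adjusted p of 0.834 from limma. The limma interval is wider than this small SD alone would give, because limma draws each gene's spread toward that of genes at the same level.

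*Axin2*, the scaffold that is also a target of β-catenin, did not move in a common direction. Its gene lies on chromosome 11 (108811169 to 108841609, plus strand). The values were 10.16, 10.21, 10.22 and 10.27 in the eGFP libraries and 10.27, 10.22, 10.21 and 10.16 in the Rnf146 libraries, so the groups span nearly the same range. The difference was 0.10 in pair 1, 0.01 and -0.01 in pairs 2 and 3, and -0.12 in pair 4. The mean was -0.004 ± 0.09 (SD, n = 4 pairs), with a 95% interval of -0.12 to 0.11 and an adjusted p of 0.986 from limma. *Axin1* and *Axin2* are the weakest expressed of the 10 and thus closest to the floor of the scale. With most of the floor subtracted before the logarithm, their differences were -0.04 and -0.005, and the interval of *Axin2* was -0.15 to 0.14.

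*Apc* and *Apc2* encode the large scaffolds that bind both Axin and β-catenin, of which *Apc2* is found mainly in the nervous system. *Apc* (chromosome 18, 34353942 to 34455605, plus strand) had values of 13.42, 13.43, 13.26 and 13.36 in the eGFP libraries and of 13.28, 13.27, 13.44 and 13.34 in the Rnf146 libraries. It was lower in pairs 1 and 2, higher in pair 3, by 0.18, and nearly level in pair 4. The mean of -0.03 ± 0.16 (SD, n = 4 pairs) was far smaller than the spread between the pairs, with an adjusted p of 0.884 from limma. Without pair 1 the difference was 0.002, and without pair 2 it was 0.01. *Apc2* (chromosome 10, 80131576 to 80154097, plus strand) was lower in 3 of the 4 pairs, by up to 0.15 in pair 4, and 0.04 higher in pair 2. Its mean of -0.07 ± 0.08 (SD, n = 4 pairs) was the lowest of the 10, with a 95% interval of -0.18 to 0.04 and an adjusted p of 0.615 from limma. A gene on the opposite strand that overlaps exons of *Apc2*, *2310011J03Rik*, had a difference of -0.05. The library kit keeps the strand, but how the strand was set in the quantification is not given in the sources used here.

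After *Axin1*, the kinases had the smallest SDs over the pairs, from 0.03 to 0.06. *Csnk1a1*, which encodes the casein kinase that primes β-catenin at its first phosphorylated serine, lies on chromosome 18 (61688229 to 61723595, plus strand). Its values were 12.80, 12.78, 12.77 and 12.80 in the eGFP libraries and 12.82, 12.84, 12.85 and 12.82 in the Rnf146 libraries. All Rnf146 libraries lay above all eGFP libraries, but only by 0.03 to 0.08 within a pair. The mean was 0.05 ± 0.03 (SD, n = 4 pairs), with a 95% interval of -0.05 to 0.15 and an adjusted p of 0.701 from limma.

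*Gsk3b* and *Gsk3a* encode the kinases that then phosphorylate β-catenin and mark it for degradation. *Gsk3b* (chromosome 16, 37909363 to 38066446, plus strand) had the largest mean difference of the 10 genes. Its values were 12.52, 12.45, 12.50 and 12.49 in the eGFP libraries and 12.56, 12.62, 12.57 and 12.58 in the Rnf146 libraries. The groups did not overlap, and pair 2 stood highest, at 0.17, against 0.04 to 0.08 in the other 3 pairs. The mean of 0.09 ± 0.06 (SD, n = 4 pairs) had a 95% interval of -0.01 to 0.19, and limma gave an adjusted p of 0.463. *Gsk3a* (chromosome 7, 24927682 to 24937564, minus strand) was lower in all 4 pairs, by 0.11 in pair 1 and by 0.01 to 0.02 in the others. The mean of -0.04 ± 0.05 (SD, n = 4 pairs) did not exceed its SD, with an adjusted p of 0.765 from limma. *Zfp526*, which overlaps *Gsk3a* on the opposite strand, differed by -0.09, with 0.63 as its adjusted p from limma.

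*Ctnnb1*, the gene of β-catenin itself, had the largest spread of the 10. It lies on chromosome 9 (120757422 to 120789579, plus strand). Its values were 13.35, 13.52, 13.52 and 13.41 in the eGFP libraries and 13.60, 13.43, 13.42 and 13.53 in the Rnf146 libraries. The gene was higher in pairs 1 and 4, by 0.25 and 0.12, and lower in pairs 2 and 3, by 0.09 and 0.10. The mean was 0.04 ± 0.17 (SD, n = 4 pairs), with a 95% interval of -0.11 to 0.20 and an adjusted p of 0.845 from limma. Without pair 1 it was -0.02, so the sign of the mean rests on that pair. *Ulk4*, which overlaps exons of *Ctnnb1* on the opposite strand, differed by 0.10 ± 0.01 (SD, n = 4 pairs), with 0.386 as its adjusted p from limma.

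The tankyrases add poly(ADP-ribose) to Axin and so make it a substrate of Rnf146. *Tnks* (chromosome 8, 35293612 to 35432868, minus strand) had values of 11.86, 11.85, 11.93 and 11.93 in the eGFP libraries and of 12.01, 12.02, 11.94 and 11.94 in the Rnf146 libraries. The groups did not overlap, yet pairs 1 and 2 carried the difference, with 0.14 and 0.18, and pairs 3 and 4 had 0.02 and 0.01. The limma fit gave an interval of -0.03 to 0.20 around the mean of 0.09 and an adjusted p of 0.517. *Tnks2* (chromosome 19, 36811597 to 36870971, plus strand) was higher in pairs 1, 2 and 3, by 0.04, 0.05 and 0.11, and lower in pair 4, by 0.08. Its mean was 0.03 ± 0.08 (SD, n = 4 pairs), with a 95% interval of -0.08 to 0.14 and an adjusted p of 0.854 from limma.

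**Figure D2:**
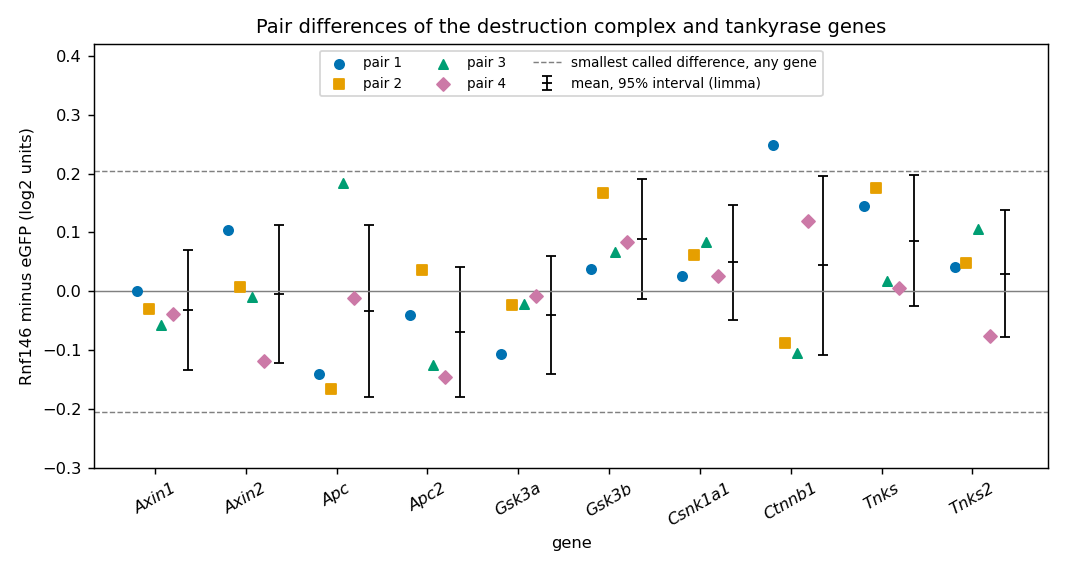
Difference between the Rnf146 and the eGFP library of each pair (vertical axis, log2 units) for the 10 genes, with the mean and its 95% limma interval in black and dashed lines at 0.205, the smallest difference of any called gene. Every interval crosses 0, and 1 of the 40 points lies beyond the dashed lines, that of Ctnnb1 in pair 1.

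Read beside *Rnf146*, the pairs did not fall in a common order. *Rnf146* had its highest difference in pair 1, where the signed difference of 3 of the 10 genes, *Axin1*, *Axin2* and *Ctnnb1*, was also highest. For *Axin1* this value was 0.0001, and its other 3 pairs were lower. *Axin2* had 0.10 there, and its difference largest in size was -0.12, in pair 4. Another 3 were highest in pair 2, where *Rnf146* was least raised, 3 were highest in pair 3, and 1 in pair 4. Of the 10 genes, 7 lay above 0 in pair 1, 6 in pair 2, 5 in pair 3 and 4 in pair 4. Averaged over the 10 genes the difference was 0.03, 0.02, 0.01 and -0.02 in the 4 pairs, and 0.01 ± 0.02 overall (SD, n = 4 pairs). No correlation with *Rnf146* was computed, because there are only 4 independent differences.

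Paralogues can be compared within the same libraries, which removes any shift that a whole library has. The difference of *Gsk3b* exceeded that of *Gsk3a* in all 4 pairs, by 0.15, 0.19, 0.09 and 0.09. The mean excess of 0.13 ± 0.05 (SD, n = 4 pairs) exceeded its SD. The exact sign-flip test gave a two-sided p of 0.125, which is the smallest that 4 pairs allow, and 0.5 after Benjamini-Hochberg adjustment over the 4 paralogue comparisons made. *Tnks* exceeded *Tnks2* in 3 pairs, by 0.06 ± 0.10 on average (exact sign-flip test, p = 0.375, adjusted 0.667). The difference of *Axin1* lay below that of *Axin2* by 0.03 ± 0.08 and was lower in 3 pairs (exact sign-flip test, p = 0.5, adjusted 0.667). *Apc* and *Apc2* were split, with *Apc* ahead in 2 pairs and a mean excess of 0.03 ± 0.23 (exact sign-flip test, p = 0.75).

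The levels of the 10 genes differed far more from each other than between the groups. To compare them, the log2 length of the canonical transcript in kilobases was subtracted from each value. On this per-length scale *Ctnnb1* was the highest, with a level of 11.58 ± 0.08 in the eGFP libraries (SD, n = 4). Because of the centring, the SDs and ranges of these levels hold only the spread of the pair differences. They do not measure how precisely a level is known. *Csnk1a1* followed with a level of 11.03 ± 0.01, and *Gsk3a* lay only 0.03 below it with an overlapping range. *Gsk3a* was thus above *Gsk3b*, at 9.44 ± 0.03, although the unscaled value of *Gsk3b* is the higher, because its canonical transcript has 8303 bases against 2549. *Apc* had a level of 9.68 ± 0.08, and the ranges of *Gsk3b* and *Tnks2*, at 9.36 ± 0.04, overlapped. *Apc2*, at 9.10 ± 0.04, and *Tnks*, at 8.69 ± 0.04, came next.

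The Axins had the lowest per-length levels, 8.07 ± 0.05 for *Axin2* and 8.05 ± 0.01 for *Axin1*, and their ranges overlapped. The floor of the scale raises the lowest levels most, so their distance from the others is a lower estimate. The order was the same in the Rnf146 libraries, where *Ctnnb1* had a level of 11.63 and *Axin1* of 8.02. There the ranges of *Csnk1a1* and *Gsk3a* did not overlap, nor did those of *Gsk3b* and *Tnks2*. The order depends on the transcript taken as the length. With the longest coding transcript *Csnk1a1* fell to a level of 10.09, below *Gsk3a* at 10.86, and *Axin1* to 7.23, below *Axin2* at 7.69.

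**Figure D3:**
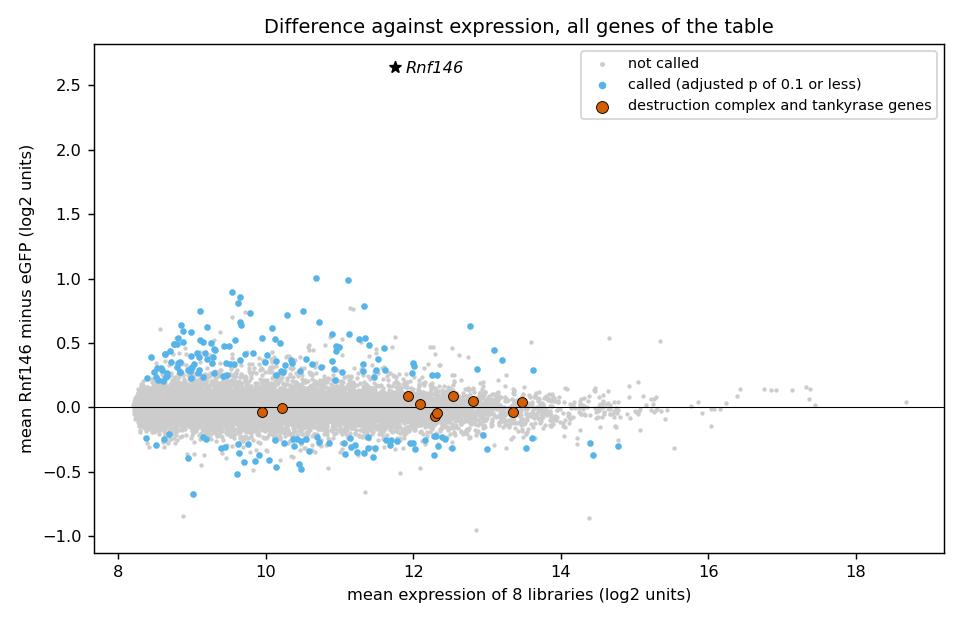
Mean difference between Rnf146 and eGFP libraries (vertical axis, log2 units) against the mean expression of the 8 libraries (horizontal axis, log2 units) for all 15039 genes, with the 188 called genes in blue and the 10 genes in orange. The 10 genes lie within 0.09 of 0 inside the grey band of genes that were not called, and Rnf146 stands apart at 2.64.

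Genes that work with the complex were not called in the main fit either. The next list held 31 kinases, scaffolds, phosphatase subunits and ubiquitin ligase subunits that act with or on the destruction complex. Limma called 0 of the 31, beside 1.25% of all genes, and 0 had an unadjusted p below 0.05, beside 12.4%. Their mean differences ran from -0.08 for *Csnk1e*, another casein kinase of the Wnt pathway, to 0.06 for *Ppp2r5d*, a regulatory subunit of protein phosphatase 2A. The median was 0.01, beside 0.0009 for all genes. The direction was the same in all 4 pairs for 1 of the 31, beside 20.6% of all genes. *Csnk1e* had differences of -0.31, -0.03, -0.09 and 0.10 in the 4 pairs, a spread wider than its mean, with 0.667 as its adjusted p from limma.

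Among 21 genes whose products bind, modify or are modified by tankyrase or serve ligases of this kind, limma called 0, and 2 had an unadjusted p below 0.05. Over all genes these shares were 1.25% and 12.4%. The median difference of the 21 genes was 0.002, and 6 of the 21 kept the same direction in all 4 pairs, beside 20.6% of all genes. The 2 genes with an unadjusted p below 0.05 stood at opposite ends. *Amotl1*, an angiomotin-like gene whose product is another substrate of tankyrase and Rnf146, had differences of 0.09, 0.29, 0.18 and 0.32 and an adjusted p of 0.142 from limma. *Tnks1bp1*, which encodes a tankyrase-binding protein, had 0.01, -0.37, -0.07 and -0.17 and an adjusted p of 0.4. Without pair 1, limma called *Amotl1* and *Amotl2*, with differences of 0.26 and 0.23 and adjusted p-values of 0.0711 and 0.0987. That fit called 421 of all genes, against 188 with all pairs, and leaving out pair 2, 3 or 4 called 0 of the 21.

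β-Catenin also works at cadherin junctions and with transcription factors in the nucleus. Of 22 such partners 0 were called by limma, beside 1.25% of all genes, and 1 had an unadjusted p below 0.05, beside 12.4%. This was *Pygo2*, a nuclear coactivator, which was lower in all 4 pairs, at -0.16 ± 0.10 (SD, n = 4 pairs), with limma's adjusted p at 0.266. The other end was *Ctnna3*, an α-catenin, at 0.09. The median of the 22 genes was -0.002, and 4 of the 22 kept the same direction in all 4 pairs, beside 20.6% of all genes.

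Of 17 widely used target genes of β-catenin besides *Axin2*, 12 were measured, and *Sp5*, *Dkk1*, *Dkk4*, *Cdx2* and *Tbxt* have no row among the values used. Limma called 0 of the 12, beside 1.25% of all genes, and 1 had an unadjusted p below 0.05, beside 12.4%. This was *Rnf43*, a membrane ubiquitin ligase that removes Wnt receptors, at a level of 8.47 in the eGFP libraries. Its differences were 0.26, -0.03, 0.08 and 0.29, with an adjusted p of 0.372 from limma. The mean level of the 12 in the eGFP libraries was 9.20 to 9.26, against 12.08 to 12.11 for the 10 genes. The targets thus lie closer to the floor, where differences are smaller, which limits what they can show. *Apcdd1*, a Wnt inhibitor, had the lowest mean, -0.14 ± 0.19 (SD, n = 4 pairs). It was lower in all 4 pairs, by -0.06, -0.03, -0.42 and -0.06, so that pair 3 made up most of the mean. Of the 12 genes, 4 had a mean above 0 and 8 below, with a median of -0.02. The direction was the same in all 4 pairs for 2 of the 12, beside 20.6% of all genes.

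**Figure D4:**
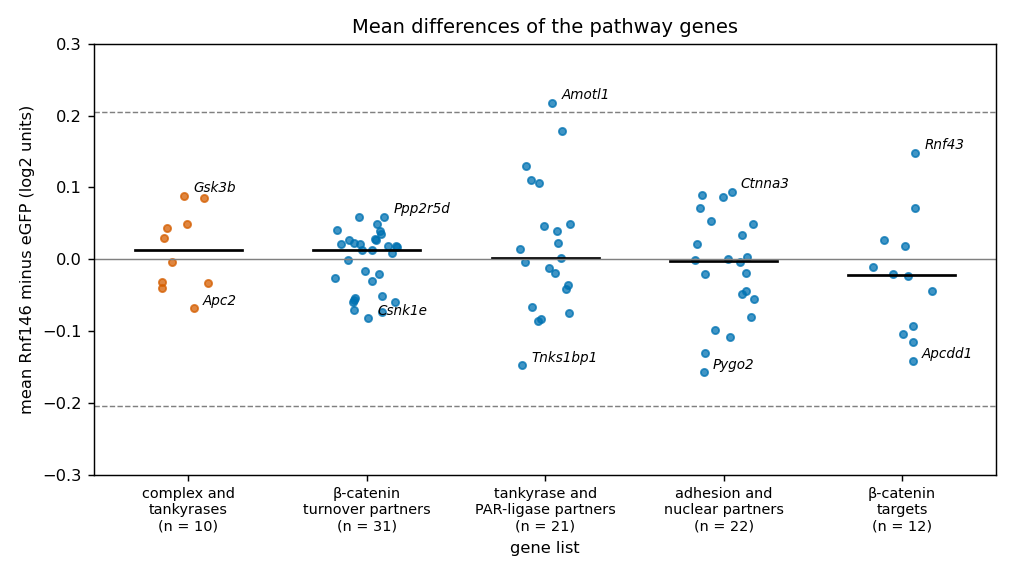
Mean difference between Rnf146 and eGFP libraries (vertical axis, log2 units) of each gene in the 5 lists, with the median as a black bar, the genes at either end of a list named, and dashed lines at 0.205, the smallest difference of any called gene. The medians lie between -0.02 and 0.01, and of all 5 lists only Amotl1 lies outside the dashed lines, without being called.

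Marker genes of cell types and of neighbouring brain regions differed between the groups. Beside the counts below, limma called 0.818% of all genes higher and 0.432% lower, and 12.4% had an unadjusted p below 0.05. In bulk tissue, fewer cells of a type and less RNA per cell cannot be told apart. Markers of cortical excitatory neurons, 9 of 9 measured, were all well above the floor. Their mean level ran from 11.25 to 11.40 in the eGFP libraries and from 11.05 to 11.20 in the Rnf146 libraries, with 2 of the 9 called, both lower. Markers of the septum and basal forebrain, 9 of 11 measured without *Chat* and *Lhx8*, had a mean level of 9.12 to 9.27 in the eGFP libraries and of 9.62 to 9.77 in the Rnf146 libraries, and all 9 were called higher. Of the 8 interneuron markers 4 were called higher and the other 4 had means below 0 without being called, with a range from -0.23 to 0.64. Markers of striatal neurons, all 12 measured and 0 called, differed by -0.09, 1.22, 0.66 and 0.24 in the 4 pairs. All 12 had a mean above 0, and 10 of the 12 had an unadjusted p below 0.05 from limma. Markers of oligodendrocytes, all 9 measured and 0 called, differed by -0.14, 0.47, 0.91 and 0.55. All 9 had a mean above 0 and an unadjusted p below 0.05 from limma. Astrocyte and endothelial markers, 8 and 6 in number, had list means of -0.02 ± 0.06 and 0.015 ± 0.07 (SD, n = 4 pairs) and 0 calls. All 8 microglia markers had a mean below 0, with a list mean of -0.17 ± 0.08 (SD, n = 4 pairs), and 1 was called lower. Of the 6 ependymal markers 3 were measured, without *Ccdc153*, *Tmem212* and *Cfap126*, and 2 were called higher. An unadjusted p below 0.05 from limma was reached by 6 of the 9 cortical, 5 of the 8 interneuron and 4 of the 8 microglia markers. It was also reached by all 9 measured septal and 2 of the 3 ependymal markers, and by 0 of the astrocyte and endothelial markers.

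These marker values stand beside the results above because they vary over the same pairs. *Apc2*, *Gsk3b* and *Tnks* had their highest signed difference in pair 2, as the striatal markers did. *Apc*, *Csnk1a1* and *Tnks2* had theirs in pair 3, as the oligodendrocyte markers did. For *Apc2* the value in pair 2 was only 0.04, and its difference largest in size was -0.15, in pair 4. *Axin1*, *Axin2* and *Ctnnb1* were highest in pair 1, where both of these lists were lowest, and *Gsk3a* in pair 4. With only 4 pairs such matches cannot be told from chance, and none was tested. With the mean of the striatal and septal markers as a covariate, the difference of *Gsk3b* was -0.0005 (95% interval -0.23 to 0.23) and that of *Tnks* was 0.03. Further from 0 than before were *Apc2*, at -0.15 (95% interval -0.40 to 0.10), and *Gsk3a*, at -0.08 (95% interval -0.32 to 0.15). The difference of *Ctnnb1* was 0.27 (95% interval -0.02 to 0.56, adjusted p of 0.982 from limma). The part of cell composition in these values was not tested beyond this fit, which has few degrees of freedom and wide intervals. Its covariate also differs between the groups, since all 9 measured septal markers were called higher.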

How the data were processed

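RNA was sequenced from 8 PFC samples, 4 per group (TruSeq stranded mRNA kit). The authors used Cutadapt for trimming and Salmon 1.9.0 with GENCODE vM30 (GRCm39) for transcript abundance. The submitters' processing notes also name DESeq2, with no role. The deposited table holds log2 values centred by the authors within same-numbered pairs; normalization and centring are not described in the sources used here. Depth is unknown, so no count test was run. Groups and pairs come from the sample titles, and 0 per-sample columns were left unused.

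The pair differences were modelled in limma 3.58.1 under R 4.3.3 (trended eBayes, Benjamini-Hochberg over 15039 genes). The replicate number was a block because centred values hold 4 independent differences, which leaves 3 residual degrees of freedom. The correlation of same-numbered libraries' deviations is fixed by the centring, so no separate check of the pairing was possible. The fit was tested on simulated data. Paralogues were compared by exact sign-flip tests (16 combinations). Coordinates and lengths are from GENCODE vM39 (GRCm39). Python 3.11.15 was used otherwise.

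Genes and lists were chosen with earlier results of these data known. Named genes are the 10 genes, *Rnf146*, and of each pathway list the called genes or otherwise the genes at either end. Marker genes are given as lists. In the list of turnover partners, 1 gene is not reported here, for a reason unrelated to its values, and is left out of its counts. Overlapping genes, *Axin2* sequences, *Amotl2* and other genes called only under an alternative were added after values were seen. Alternatives were no block, a filter on low means, median centring, quantile normalization, other variance priors, a floor subtraction, a marker covariate, each pair left out and an adjusted p of 0.05.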

Additional observations from a re-analysis of the deposited data

Results flagged for a closer look

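Of 11 genes examined for an outlying replicate (the 10 genes and *Rnf146*), *Gsk3a* had a gap between pair 1 and the nearest other pair that was 0.845 of the whole range, above Dixon's 95% critical value for 4 values. The difference was -0.11 in pair 1 and -0.02, -0.02 and -0.01 in the others, and without pair 1 the mean was -0.02. Chance alone gives such a gap in about 1 of 20 groups.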

How the results depend on the processing

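The 10 genes were refitted under 12 alternatives each, 120 values in all, of which 111 kept their direction and their side of the threshold. Dropping the block, changing the variance prior or filtering on low means cannot change a difference. Under these only the side of the threshold could change, so the count of 111 overstates how far the direction was tried. Only the fit without the replicate block called any of them, *Gsk3b* and *Tnks* (2 genes, adjusted p of 0.0406 and 0.0963 from limma). That fit counts 6 residual degrees of freedom where the centred values hold 3. It called 3226 of all genes, and 0, 5, 3 and 2 genes of the turnover, tankyrase, adhesion and nuclear, and target lists. Under all other alternatives the lowest adjusted p of the 10 genes was 0.39. With the marker covariate 1 gene of the table was called, and the means of *Axin2*, *Apc* and *Gsk3b* changed sign, to 0.0226, 0.016 and -0.0005. This covariate leaves fewer degrees of freedom. It is also not independent of the group, since all 9 measured septal markers in it were called higher. An adjusted p of 0.05 left 80 genes. When pairs were left out singly, the number of called genes of the table ran from 14 (without pair 4) to 421 (without pair 1), and was 42 without pair 2. That of the 10 genes stayed at 0, and that of the tankyrase list ran from 0 to 2. The mean of *Axin2* then ran from -0.0403 to 0.034, that of *Apc* from -0.106 to 0.0102 and that of *Ctnnb1* from -0.0241 to 0.0933. The mean over the 10 genes ran from 0.0055 to 0.0214. The difference of *Rnf146* stayed called throughout, from 2.58 to 2.69 with a pair left out. The cause of the other changes was not tested. Without read counts, whether deeper sequencing would narrow the intervals is unknown.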
